A study of Mus musculus with 6 samples.

Results

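The 85 mouse genes described here encode Mediator, TFIID and its TAF relatives, the general factors TFIIA to TFIIH and TFIIIC, the TFII-I family, and the Supt factors of elongation and of the SAGA complex. They were chosen by gene symbol alone (numbered Med, Taf and Supt genes, all Gtf2 and Gtf3 genes, Tbp, Ercc2 and Ercc3), and they are 85 of the 17173 genes in the table. Bone marrow of a mouse multiple myeloma model had been profiled in 6 RNA libraries, 3 labelled Che-1 silencing (titled vkche) and 3 labelled control, and all 6 name VkCHE mice as their source. Che-1 is the protein of Aatf. Age, the means of silencing, its promoter or target cells, and whether a library is a separate animal are not given in the labels, so a p-value here reflects how far these libraries scatter, and that scatter may be technical. A total of 84 members had a mean of at least 10 normalized counts and were tested. The remaining member, the testis paralog Gtf2a1l, had 0, 0 and 2 reads in the Che-1 silencing libraries and 1, 3 and 2 reads in the control libraries.

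RNA polymerase II cannot find a promoter by itself. TFIID, built of the TATA-binding protein Tbp and the TAFs, recognises core promoter DNA, TFIIA and TFIIB join it, the polymerase arrives with TFIIF, and TFIIE and TFIIH open the DNA and release the enzyme. Mediator carries signals from activators to this assembly: its head and middle modules contact the polymerase, its tail contacts activators, and a dissociable kinase module of Cdk8 or Cdk19, cyclin C, Med12 and Med13 regulates that contact.

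Promoters are shown for 4 genes chosen after their values were seen: Taf9 and Taf9b, the members with the highest and the lowest difference between the groups relative to the median gene, and Med21 and Med13l, the highest and the lowest of the Mediator genes with a promoter window (the promoter of Med8, which was higher than Med21, was not analysed here). Each window runs from 250 bases before to 50 bases after the RefSeq start on build GRCm38.p6, 5′ to 3′ on the strand of the gene: Med21 at chr6:146642329-146642628 (plus strand), Med13l at chr5:118560469-118560768 (plus strand), Taf9 at chr13:100651093-100651392 (plus strand) and Taf9b at chrX:106221109-106221408 (minus strand). Capitals mark, on either strand, the CCAAT box, the GC box (GGGCGG), the core of ETS factor sites (CCGGAA) and the TATA box (TATAAA). Abutting matches run together, as near the end of the Med21 window.
Med21: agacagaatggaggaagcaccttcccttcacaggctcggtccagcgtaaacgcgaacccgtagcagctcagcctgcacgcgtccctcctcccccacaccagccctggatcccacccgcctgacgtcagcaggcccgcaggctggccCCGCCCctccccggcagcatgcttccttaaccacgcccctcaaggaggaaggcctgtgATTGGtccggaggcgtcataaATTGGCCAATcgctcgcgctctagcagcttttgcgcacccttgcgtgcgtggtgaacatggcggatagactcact
Taf9: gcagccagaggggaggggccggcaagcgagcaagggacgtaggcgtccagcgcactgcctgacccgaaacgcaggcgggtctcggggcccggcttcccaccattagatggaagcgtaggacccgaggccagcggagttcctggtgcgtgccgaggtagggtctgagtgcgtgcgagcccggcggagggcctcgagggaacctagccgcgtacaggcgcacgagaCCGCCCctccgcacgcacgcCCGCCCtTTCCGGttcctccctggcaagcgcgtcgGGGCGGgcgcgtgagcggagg
Med13l: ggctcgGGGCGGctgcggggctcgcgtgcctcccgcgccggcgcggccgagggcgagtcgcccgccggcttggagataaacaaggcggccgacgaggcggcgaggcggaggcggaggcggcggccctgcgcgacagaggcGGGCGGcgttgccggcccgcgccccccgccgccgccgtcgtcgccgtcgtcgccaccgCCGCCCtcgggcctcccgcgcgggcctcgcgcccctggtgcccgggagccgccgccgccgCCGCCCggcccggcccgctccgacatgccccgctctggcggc
Taf9b: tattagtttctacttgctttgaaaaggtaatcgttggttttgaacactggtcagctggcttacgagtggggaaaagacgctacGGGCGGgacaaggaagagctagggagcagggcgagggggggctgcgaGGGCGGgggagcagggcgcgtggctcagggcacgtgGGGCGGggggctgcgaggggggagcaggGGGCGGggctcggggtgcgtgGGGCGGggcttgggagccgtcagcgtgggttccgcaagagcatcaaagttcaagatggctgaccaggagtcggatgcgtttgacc
The Taf9 window is also that of Ak6, whose transcripts share 1119 exon bases with Taf9 on the same strand, so Taf9 counts may hold reads of Ak6. The Taf9b window shown holds GGGCGG 5 times and none of the other 3 motifs. Taf9 and Taf9b each have 2 windows, of which the first is shown. The first window of each gene was also used for the motif shares given next.

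Over the promoter windows of 76 members with a match, CCGGAA (either strand) occurred in 37, or 48.7%, against 26.1% of the 10721 windows of tested genes and 15.2% of all 27025 windows. GGGCGG occurred in 65.8% of the members' windows, against 62.2% of those of tested genes and 35.9% of all windows. CCAAT occurred in 35.5% of the members' windows, against 38.7% of those of tested genes and 37.9% of all windows. TATAAA occurred in 10 members' windows (Gtf2a2, Gtf2f1, Gtf3c6, Med7, Med16, Med28, Taf5, Taf6, Taf11 and Taf13), or 13.2%, against 7.24% of those of tested genes and 14.2% of all windows. These are matches of letters, with no binding measured.

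The libraries held between 11659755 and 25772190 recovered gene reads. Aatf did not check the label. Its normalized counts (reads scaled to spike-in RNA) were 1986, 3808 and 1223 in the Che-1 silencing libraries. The control libraries had 896, 396 and 421. Per spike-in RNA its log2 difference, Che-1 silencing minus control, came to 1.98 (SE 0.57, limma adjusted p = 0.0021). The median over all 14635 genes tested was 1.55 by that measure, and 66.8% of them rose. Relative to each library's median gene, Aatf differed by only 0.45 (SE 0.19, limma adjusted p = 0.144) and did not pass. Directions are therefore given for libraries carrying that label and not for a measured loss of Aatf. In the authors' deposited table Xist had means of 68685 in the Che-1 silencing libraries and 5.64 in the control libraries, and the groups cannot be told apart from a difference of sex. Germinal centre B cell markers (6 of 6 with a row) summed to 110, 93.3 and 6.04 times the median gene in Che-1 silencing replicates 1, 2 and 3 and to between 3.17 and 3.65 in the control libraries. Proliferation markers (5 of 5 with a row, 4 recovered) summed to 62.4, 61.3 and 24.4 in the Che-1 silencing libraries and to between 14.9 and 29.8 in the control libraries. Neutrophil markers (7 of 8 with a row, Ly6g without) summed to 1.65, 6.51 and 29.8 in the Che-1 silencing libraries, against 11.9 to 27.7 in the control libraries, and plasma cell markers (7 of 7) to 39.6 to 71.7 in the Che-1 silencing libraries and 40.8 to 82.2 in the control libraries. The groups did not overlap in erythroid markers (6 of 6 with a row; 2.24 to 14.3 in the Che-1 silencing libraries and 17.3 to 47.2 in the control libraries), progenitor markers (2 of 2; 1.42 to 2.15 in the Che-1 silencing libraries and 3.15 to 6.40 in the control libraries) or macrophage markers (3 of 3; 27.2 to 28.9 in the Che-1 silencing libraries and 14.3 to 25.2 in the control libraries). B cell, T cell, megakaryocyte and testis marker sums overlapped between the groups. The part of these markers in the results below was not tested, and in such mixed tissue fewer cells of a type and less RNA per cell cannot be told apart.

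Per spike-in RNA, nearly all of these genes were more abundant in the libraries labelled Che-1 silencing. Of the 84 tested members 80 rose and 0 fell (limma, adjusted p of at most 0.05), against rises in 66.8% and falls in 0.745% of all 14635 genes tested. The median member was 1.80 log2 units higher and the median of all genes tested 1.55 higher. How much spike-in RNA was added per cell is not given in the sources used here. Tbp, the TATA-binding subunit of TFIID, had 1590, 3220 and 755 normalized counts in the Che-1 silencing libraries and 568, 317 and 355 in the control libraries. Its groups did not overlap, and it rose by 1.97 log2 units (SE 0.56, limma adjusted p = 0.0020). In 70 members all 3 Che-1 silencing libraries lay above all 3 control libraries, as they did in 68.0% of all genes tested, and in 0 members they all lay below, against 0.437%.

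The 4 members that did not pass on this scale were Med12, Med12l, Med13l and Taf9b. Med12, a kinase module subunit that activates Cdk8, had 4121, 7493 and 3583 normalized counts in the Che-1 silencing libraries and 4164, 1807 and 2028 in the control libraries. The highest control library lay above 2 of the Che-1 silencing libraries, and the log2 difference was 0.95 (SE 0.59, limma adjusted p = 0.135). Med13l, a paralog of the subunit that docks the kinase module on Mediator, had 4050, 7318 and 3522 in the Che-1 silencing libraries against 4648, 1988 and 2238 in the control libraries (0.78, SE 0.59, limma adjusted p = 0.224). Med12l had 361, 735 and 870 in the Che-1 silencing libraries against 377, 262 and 298 in the control libraries (0.99, SE 0.54, limma adjusted p = 0.0924). Taf9b, a paralog of the histone-fold subunit Taf9, had 199, 466 and 569 in the Che-1 silencing libraries against 316, 237 and 261 in the control libraries (0.47, SE 0.53, limma adjusted p = 0.420). In all 4 genes the groups overlapped.

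edgeR called 80 members higher and 0 lower (69.1% and 0.574% of all genes), and DESeq2 called 81 and 0 (72.5% and 0.362% of all genes). The calls rested on a spread shared across genes: limma without moderation called 0 of the 84 members (0.0% of all genes). With moderation but without Che-1 silencing replicate 1 or 2, limma called 44 and 48 higher (39.1% and 42.1% of all genes). Moderated limma without control replicate 2 or 3 called 24 and 27 (22.0% and 24.3% of all genes). In the authors' deposited table a total of 37 of the 85 members, or 43.5%, had a p-value of at most 0.05, against 26.3% of all its genes. After adjustment 0 members passed (lowest adjusted p = 0.186), and only 13 of all its 17173 genes did.

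**Figure D1:**
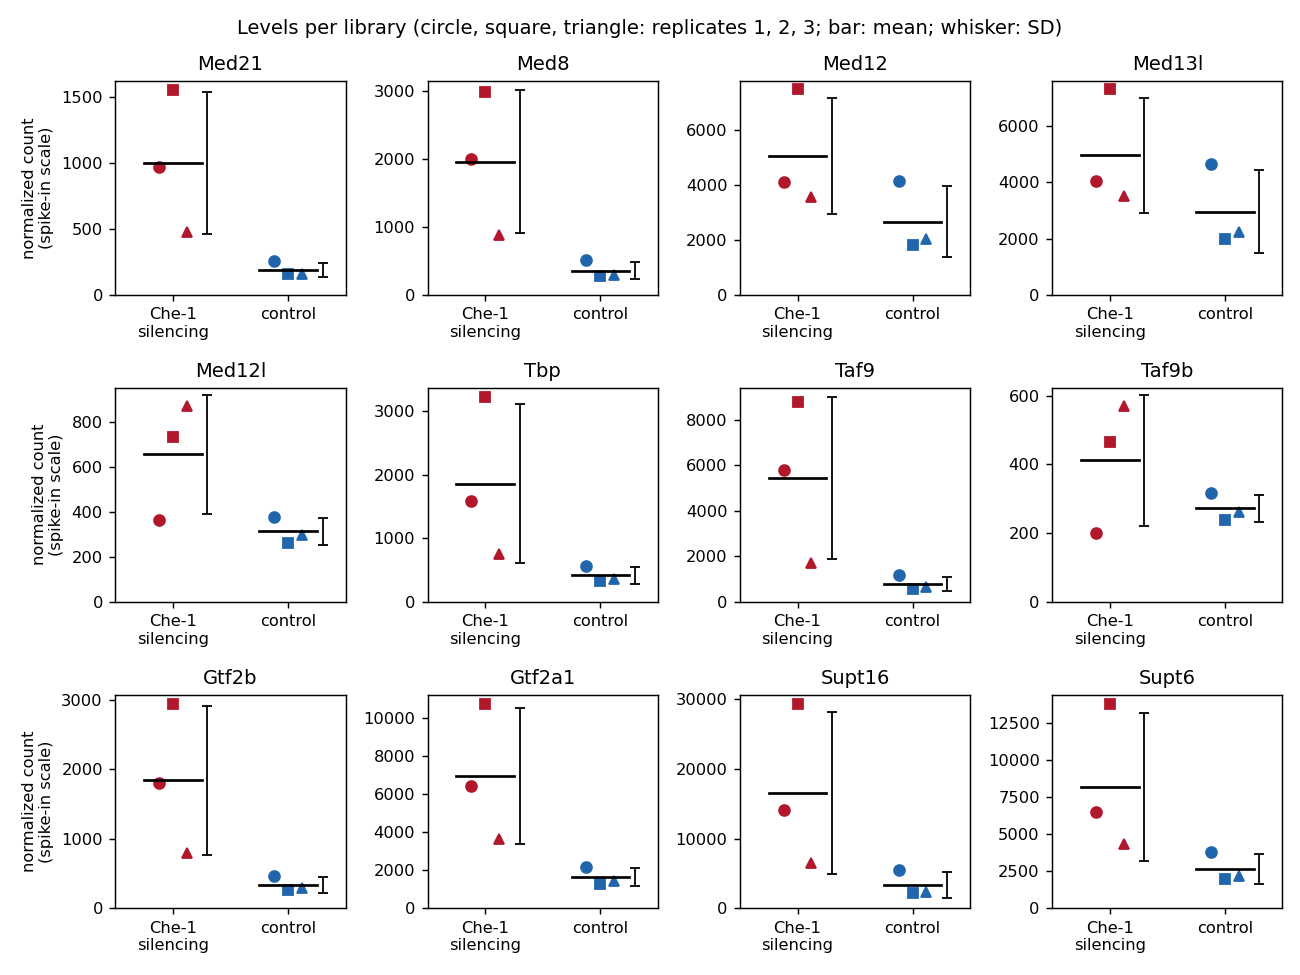
Normalized counts per spike-in RNA (vertical axes, linear from 0) of 12 genes in the 3 Che-1 silencing libraries (red, left) and the 3 control libraries (blue, right); circles, squares and triangles are replicates 1, 2 and 3, horizontal bars group means and whiskers SD. Most genes have all red points above the blue ones, while Med12, Med13l, Med12l and Taf9b overlap, and in Taf9b and Med12l the highest red point is replicate 3.

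A different picture appeared relative to each library's median gene, a scale that removes the shift of whole libraries. Here the median member was 0.27 log2 units higher in the Che-1 silencing libraries, against 0.02 for all genes tested, and 62 of 84 members (73.8%) had a higher mean, against 50.8% of all genes. No member passed: limma called 0 higher and 0 lower, with a lowest adjusted p of 0.0756, against 0.0% and 0.0273% of all genes. At an unadjusted p of at most 0.05 limma had 21 members higher (17.8% of all genes) and 2 lower (17.3% of all genes). edgeR called 0 and 0, and DESeq2 called 19 higher (15.6% of all genes) and 2 lower (11.5% of all genes). All 3 Che-1 silencing libraries lay above all 3 control libraries in 22 members, or 26.2%, against 20.5% of all genes. They lay below in 4 members (Med12, Med13l, Med16 and Gtf2ird2), or 4.76%, against 19.7% of all genes.

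These counts changed without Che-1 silencing replicate 3. The members' median stood 0.42, 0.41 and -0.01 log2 units from the control mean in Che-1 silencing replicates 1, 2 and 3, and 0.16, -0.07 and -0.09 from it in control replicates 1, 2 and 3. Without Che-1 silencing replicate 3 limma called 43 members higher, or 51.2%, against 27.7% of all genes, and 4 lower, or 4.76%, against 25.2% of all genes. The 4 lower were Med12, Med12l, Med13l and Taf9b. Replicates 1 and 2 are also those with the high germinal centre B cell and proliferation markers given above.

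**Figure D2:**
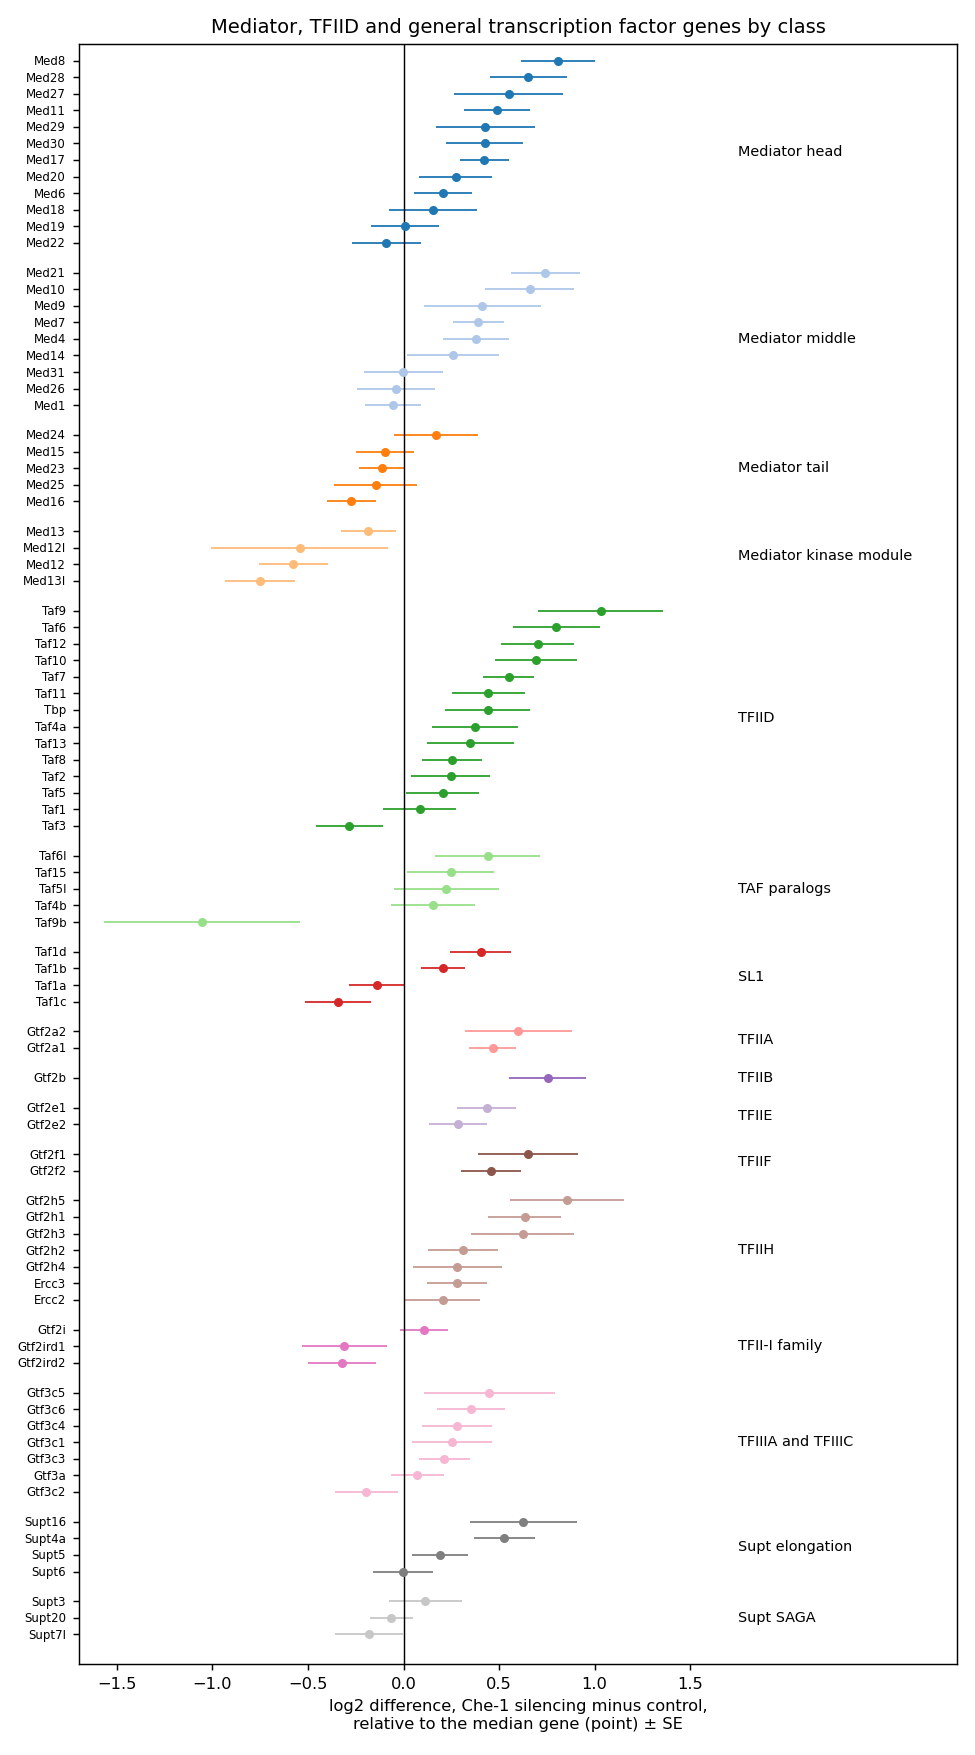
Log2 difference of each of the 84 tested members, Che-1 silencing minus control, relative to the median gene (horizontal axis, points with SE from limma), grouped by complex. Head and TFIID genes lie mostly right of 0, up to 1.03 for Taf9, and the 4 Med genes of the kinase module lie left of it, down to -0.75 for Med13l, with Taf9b lowest at -1.06.

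Within Mediator the head and middle genes had similar differences, and the tail genes and the Med genes of the kinase module had lower medians. The 12 head genes had a median relative difference of 0.42 log2 units and the 9 middle genes one of 0.38, with 11 and 6 of them higher in mean. The 5 tail genes had a median of -0.11 with 1 higher, and the 4 Med genes of the kinase module (Med12, Med12l, Med13 and Med13l) had a median of -0.56 with 0 higher. Their partners Ccnc and Cdk8, whose symbols fall outside the rule, had higher means (0.67 and 0.16), and Cdk19 a lower one (-0.33). The genes ran from -0.09 to 0.81 in the head, from -0.05 to 0.74 in the middle, from -0.27 to 0.17 in the tail and from -0.75 to -0.18 among the kinase module Med genes, so neighbouring ranges overlapped. Head medians were 0.58, 0.48 and 0.06 in Che-1 silencing replicates 1, 2 and 3, against 0.07, -0.05 and -0.01 in control replicates 1, 2 and 3, so replicate 3 lay within the control range. Medians of the kinase module Med genes were -0.82, -0.69 and -0.22 in the Che-1 silencing libraries, against 0.27, -0.15 and -0.12 in the control libraries, and all 3 Che-1 silencing libraries were below the control libraries. The head median exceeded that of the kinase module Med genes by 1.40, 1.18 and 0.28 in the Che-1 silencing libraries and by -0.20, 0.10 and 0.12 in the control libraries. These are descriptions of few genes and carry no test.

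Med8, of the head submodule that binds Tbp in yeast, had 2006, 2984 and 882 normalized counts in the Che-1 silencing libraries and 506, 274 and 293 in the control libraries. Relative to the median gene it stood at 1.32, 1.16 and 0.68 log2 units in the Che-1 silencing libraries, against 0.38, 0.21 and 0.14 in the control libraries. The groups did not overlap on either scale. The relative difference was 0.81 (SE 0.20, limma adjusted p = 0.0756, DESeq2 adjusted p = 0.0036). Med22, lowest of the head genes, had 0.53, 0.37 and 0.08 in the Che-1 silencing libraries against 0.65, 0.26 and 0.34 in the control libraries, with overlap and a difference of -0.09 (SE 0.18). Med17, the scaffold of the head, had 1.48, 1.44 and 1.20 in the Che-1 silencing libraries against 1.03, 0.87 and 0.95 in the control libraries, without overlap. The Med17 difference was 0.42 (SE 0.13, limma adjusted p = 0.0916, DESeq2 adjusted p = 0.0198).

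Among the middle genes Med21, whose product pairs with Med7 in the middle module in yeast, had 966, 1549 and 473 normalized counts in the Che-1 silencing libraries and 253, 157 and 156 in the control libraries. Its relative levels were 0.26, 0.21 and -0.22 in the Che-1 silencing libraries, against -0.62, -0.59 and -0.76 in the control libraries. All Che-1 silencing libraries were above all control libraries. The relative difference was 0.74 (SE 0.18, limma adjusted p = 0.0759, DESeq2 adjusted p = 0.0030). Med1, the subunit that nuclear receptors bind, had 5161, 9810 and 3351 normalized counts in the Che-1 silencing libraries, against 3107, 1504 and 1686 in the control libraries, and its relative difference was -0.05 (SE 0.15), with overlap on that scale. Med14, the backbone that joins the modules, differed by 0.26 (SE 0.24) and Med26, which binds TFIID and elongation factors, by -0.04 (SE 0.20).

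The tail genes differed little relative to the median gene. Med24 differed by 0.17 (SE 0.22) and Med23 by -0.11 (SE 0.12). Med16 had relative levels of 0.71, 0.50 and 0.44 in the Che-1 silencing libraries and 0.86, 0.81 and 0.80 in the control libraries. Its difference was -0.27 (SE 0.13, limma adjusted p = 0.173), and the groups did not overlap.

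In the kinase module Med13l had relative levels of 2.33, 2.45 and 2.67 in the Che-1 silencing libraries and 3.58, 3.06 and 3.07 in the control libraries. Every Che-1 silencing library was below every control library, with a difference of -0.75 (SE 0.18, limma adjusted p = 0.0769; DESeq2 adjusted p = 0.0059). Med12 had 2.35, 2.49 and 2.70 in the Che-1 silencing libraries against 3.42, 2.93 and 2.93 in the control libraries, also without overlap, a difference of -0.58 (SE 0.18, limma adjusted p = 0.0930; DESeq2 adjusted p = 0.0312). Med12 shares 749 exon bases on the same strand with the annotated gene Gm21986, so its counts are uncertain. Med13 differed by -0.18 (SE 0.14). Med12l had -1.15, -0.86 and 0.66 in the Che-1 silencing libraries against -0.04, 0.15 and 0.17 in the control libraries, so that replicate 3 was the highest of the 6 libraries and replicates 1 and 2 the lowest. Its difference was -0.54 (SE 0.46, limma adjusted p = 0.408). Per spike-in RNA the means of all 4 kinase module Med genes were higher in the Che-1 silencing libraries, by 0.78 to 1.35 log2 units, and Med13 alone passed (SE 0.58, limma adjusted p = 0.0325). Med12 is on the X chromosome. The 4 X-linked members (Med12, Med14, Taf1 and Taf9b) ran from -1.06 to 0.26 relative to the median gene, with 2 higher in mean. Their median was -0.25, against 0.05 for the 489 X-linked genes tested, of which 51.9% were higher in mean.

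**Figure D3:**
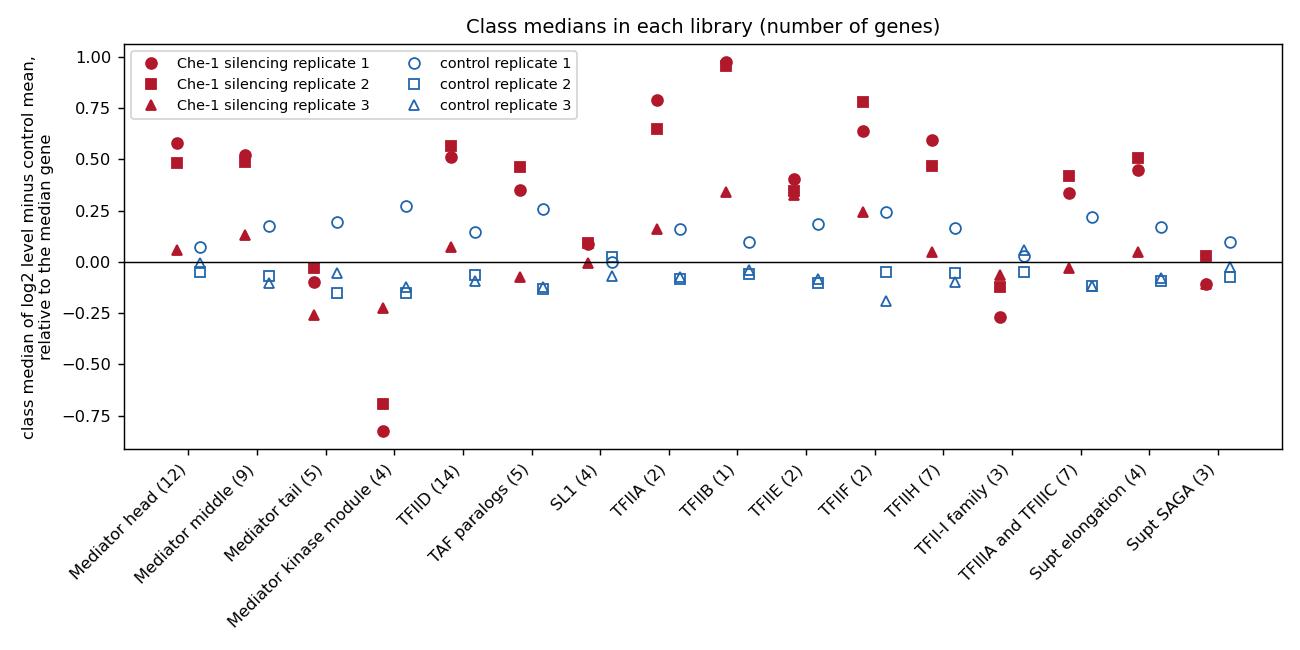
Median over the genes of each class of the log2 level minus the control mean, relative to the median gene (vertical axis), in each Che-1 silencing library (red, filled) and each control library (blue, open). In Che-1 silencing replicates 1 and 2 most class medians lie above 0, and in replicate 3 (triangles) most lie near it. The Mediator tail, the Med genes of the kinase module and the TFII-I family are below 0 in all 3.

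TFIID genes were mostly higher in mean in the Che-1 silencing libraries, relative to the median gene. The median over 14 genes was 0.41 log2 units with 13 higher in mean, and the class medians were 0.51, 0.57 and 0.07 in Che-1 silencing replicates 1, 2 and 3, against 0.15, -0.07 and -0.09 in control replicates 1, 2 and 3. Taf9, a histone-fold subunit that TFIID shares with SAGA, had 5813, 8787 and 1721 normalized counts in the Che-1 silencing libraries and 1150, 574 and 644 in the control libraries. Its relative levels were 2.85, 2.72 and 1.64 in the Che-1 silencing libraries, against 1.56, 1.27 and 1.28 in the control libraries. The groups did not overlap, though replicate 3 lay 0.27 above the control mean where replicates 1 and 2 lay 1.41 above it. The relative difference was 1.03 (SE 0.33, limma adjusted p = 0.0950, DESeq2 adjusted p = 0.0113). The spike-in difference of 2.56 (SE 0.58, limma adjusted p = 1.6e-04) was the highest of the members. Of the other histone-fold genes, Taf6, Taf10, Taf12 and Taf11 differed by 0.80 (SE 0.23), 0.70 (SE 0.21), 0.70 (SE 0.19) and 0.44 (SE 0.19), each without overlap. Taf4a, Taf13 and Taf8 differed by 0.37 (SE 0.23), 0.35 (SE 0.23) and 0.25 (SE 0.16), each with overlap.

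Taf7, which binds Taf1, was as high in replicate 3 as in the others. Its relative levels were 0.37, 0.40 and 0.50 in the Che-1 silencing libraries and -0.01, -0.11 and -0.26 in the control libraries. The groups did not overlap, with a difference of 0.55 (SE 0.13, limma adjusted p = 0.0766; DESeq2 adjusted p = 0.0019). Tbp had relative levels of 0.98, 1.27 and 0.45 in the Che-1 silencing libraries against 0.55, 0.42 and 0.42 in the control libraries, with overlap and a difference of 0.44 (SE 0.22). Taf1, the largest TFIID subunit, differed by 0.08 (SE 0.19). Taf3, a histone-fold subunit that reads trimethylated lysine 4 of histone H3, was the sole TFIID gene with a lower mean (-0.28, SE 0.18, with overlap).

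Of the 5 TAF relatives outside the core set, Taf9b had the lowest relative difference. Its relative levels were -2.01, -1.52 and 0.05 in the Che-1 silencing libraries and -0.30, 0.00 and -0.02 in the control libraries. Replicates 1 and 2 were the lowest of the 6 libraries and replicate 3 the highest. The difference of -1.06 (SE 0.51) did not pass (limma adjusted p = 0.187), and without replicate 3 it was -1.66 (limma adjusted p = 0.0024). Taf4b, Taf5l, Taf6l and the RNA-binding Taf15 differed by 0.15 (SE 0.22), 0.22 (SE 0.27), 0.44 (SE 0.28) and 0.25 (SE 0.23), all with overlap. The SL1 genes, which load RNA polymerase I on ribosomal DNA, ran from -0.34 for Taf1c (SE 0.17) to 0.40 for Taf1d (SE 0.16), with a median of 0.03. Taf1b had 0.68, 0.67 and 0.58 in the Che-1 silencing libraries against 0.39, 0.44 and 0.48 in the control libraries, a difference of 0.21 (SE 0.12) without overlap.

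All 14 tested members of TFIIA, TFIIB, TFIIE, TFIIF and TFIIH were higher in mean relative to the median gene, by 0.21 to 0.86 log2 units with a median of 0.46. All 14 rose on the spike-in scale, as did 66.8% of all genes tested. The kinase genes of TFIIH have symbols outside the rule: Ccnh and Mnat1 had higher relative means (0.66 and 0.58) and Cdk7 a lower one (-0.46). Gtf2b, the TFIIB gene, had 1799, 2941 and 795 normalized counts in the Che-1 silencing libraries and 473, 259 and 294 in the control libraries. Its relative levels were 1.16, 1.14 and 0.53 in the Che-1 silencing libraries, against 0.28, 0.13 and 0.15 in the control libraries, without overlap. The relative difference was 0.76 (SE 0.20, limma adjusted p = 0.0822, DESeq2 adjusted p = 0.0075). Gtf2a1, the large TFIIA subunit, had 6441, 10737 and 3653 normalized counts in the Che-1 silencing libraries, against 2163, 1301 and 1412 in the control libraries. All Che-1 silencing libraries were higher on both scales, with a relative difference of 0.47 (SE 0.12, limma adjusted p = 0.0814, DESeq2 adjusted p = 0.0061). The small TFIIA subunit Gtf2a2 differed by 0.60 (SE 0.28) with overlap.

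The TFIIE genes Gtf2e1 and Gtf2e2 differed by 0.43 (SE 0.15) and 0.28 (SE 0.15), and the TFIIF genes Gtf2f1 and Gtf2f2 by 0.65 (SE 0.26) and 0.46 (SE 0.16). Gtf2e1 and Gtf2f2 had no overlap between groups. In TFIIH the difference was largest for Gtf2h5, its smallest core subunit, with relative levels of 0.89, 0.79 and -0.12 in the Che-1 silencing libraries and -0.08, -0.39 and -0.54 in the control libraries. Replicate 3 lay among the control libraries, and the difference was 0.86 (SE 0.30, limma adjusted p = 0.108, DESeq2 adjusted p = 0.0288). Gtf2h1 had 2.16, 2.19 and 1.69 in the Che-1 silencing libraries against 1.64, 1.22 and 1.28 in the control libraries, a difference of 0.63 (SE 0.19) without overlap. The helicase genes Ercc2 and Ercc3, which unwind DNA in transcription and repair, differed by 0.21 (SE 0.20) and 0.28 (SE 0.16).

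Relative differences in the TFII-I family and in TFIIIA and TFIIIC stayed within 0.45 log2 units of 0. In the TFII-I family, whose products bind specific sites rather than every promoter, Gtf2i differed by 0.11 (SE 0.12), Gtf2ird1 by -0.31 (SE 0.22) and Gtf2ird2 by -0.32 (SE 0.18). Gtf2ird2 had relative levels of -0.87, -0.73 and -1.18 in the Che-1 silencing libraries and -0.58, -0.69 and -0.55 in the control libraries, without overlap. The 7 genes of TFIIIA and TFIIIC, which serve RNA polymerase III at 5S and transfer RNA genes, had a median of 0.25 and ran from -0.19 for Gtf3c2 (SE 0.16) to 0.45 for Gtf3c5 (SE 0.34), all with overlap. Gtf3c2 shares 2556 exon bases on the same strand with the annotated gene Gm29609, so its counts are uncertain.

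Among the elongation genes Supt16, the large FACT subunit, had 14075, 29310 and 6468 normalized counts in the Che-1 silencing libraries and 5499, 2251 and 2422 in the control libraries. On the spike-in scale the groups did not overlap and it rose by 2.16 (SE 0.58, limma adjusted p = 0.0012). Relative to the median gene the groups overlapped, and the difference was 0.63 (SE 0.28). Supt4a and Supt5, the subunits of the pausing factor DSIF, differed by 0.53 (SE 0.16, no overlap) and 0.19 (SE 0.15, overlap). Supt6, a histone chaperone of the moving polymerase, differed by -0.003 (SE 0.16). The SAGA genes Supt3, Supt7l and Supt20 differed by 0.11 (SE 0.19), -0.18 (SE 0.18) and -0.06 (SE 0.11), all with overlap.

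Paralog pairs were compared by their log2 ratio within each library, which depends on neither scale. Over 8 pairs, the exact two-sided permutation test cannot go below p = 0.10 with 3 against 3 libraries. Med13l over Med13 was -1.68, -1.64 and -1.57 in the Che-1 silencing libraries and -0.94, -1.10 and -1.14 in the control libraries. The groups did not overlap, with a difference of -0.57 (exact permutation p = 0.10, adjusted over the 8 pairs 0.20). Gtf2ird2 over Gtf2i differed by -0.43, Taf6l over Taf6 by -0.36 and Taf4b over Taf4a by -0.22, each lower in 3 of 3 Che-1 silencing libraries with the same exact permutation p. Taf9b over Taf9 was -4.86, -4.23 and -1.60 in the Che-1 silencing libraries against -1.86, -1.27 and -1.30 in the control libraries. Taf9 counts may hold reads of Ak6, so this ratio is uncertain. Replicate 3 lay within the control range, and the difference was -2.09 (exact permutation p = 0.20, adjusted 0.267). Gtf2ird1 over Gtf2i differed by -0.42 with the same p, Med12l over Med12 by 0.04 and Taf5l over Taf5 by 0.02 (exact permutation p = 1.0 for both).

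**Figure D4:**
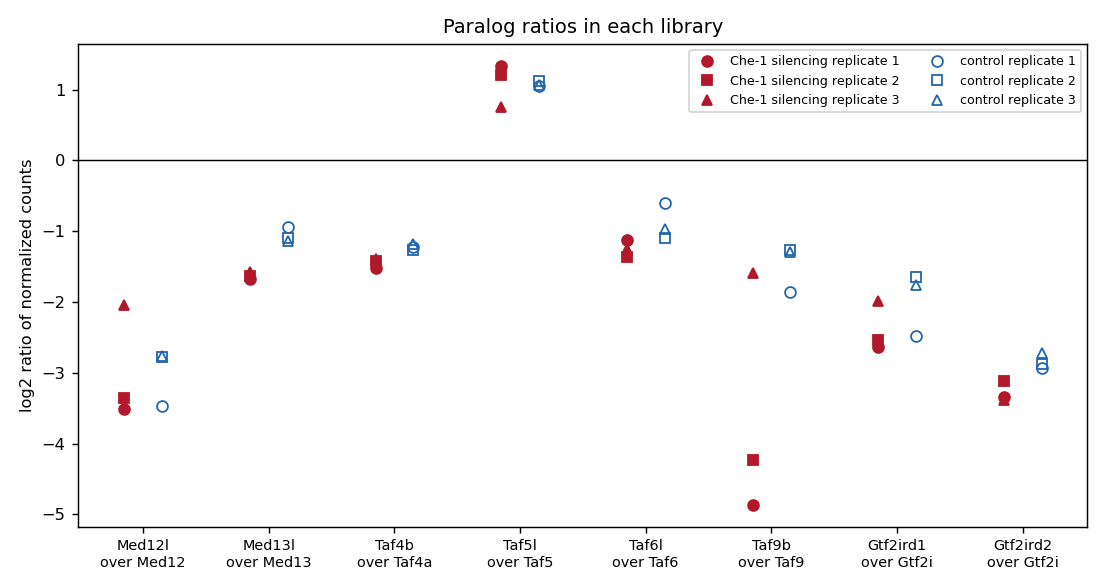
Log2 ratio of normalized counts of 8 paralog pairs (vertical axis) in each Che-1 silencing library (red, filled, left) and each control library (blue, open, right). Med13l over Med13 is lower in all 3 Che-1 silencing libraries, and Taf9b over Taf9 is lower in replicates 1 and 2 but not in replicate 3.

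Differences among the members ran with transcript length. Over 84 members, the relative difference and the median spliced length of a gene's protein-coding transcripts had a Spearman rho of -0.457, and -0.381 over 80 members without the kinase module Med genes, against -0.192 over 14518 genes tested. All these genes come from the same 6 libraries, so the correlations describe genes and carry no p. In Che-1 silencing replicates 1, 2 and 3 against the control mean, rho over the members was -0.438, -0.346 and -0.410. When all genes were cut into 5 equal bins by length, from shortest to longest the members' medians were 0.46, 0.30, 0.27, 0.20 and 0.08, and those of all genes 0.24, 0.11, 0.02, -0.06 and -0.19. In each bin the members' median was the higher, and both declined with length. The 4 kinase module Med genes had transcripts of 6.81 to 10.5 kb, while Med21 had 0.693 kb and Med11 0.673 kb. The part of length in the module differences was not tested beyond these values.

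**Figure D5:**
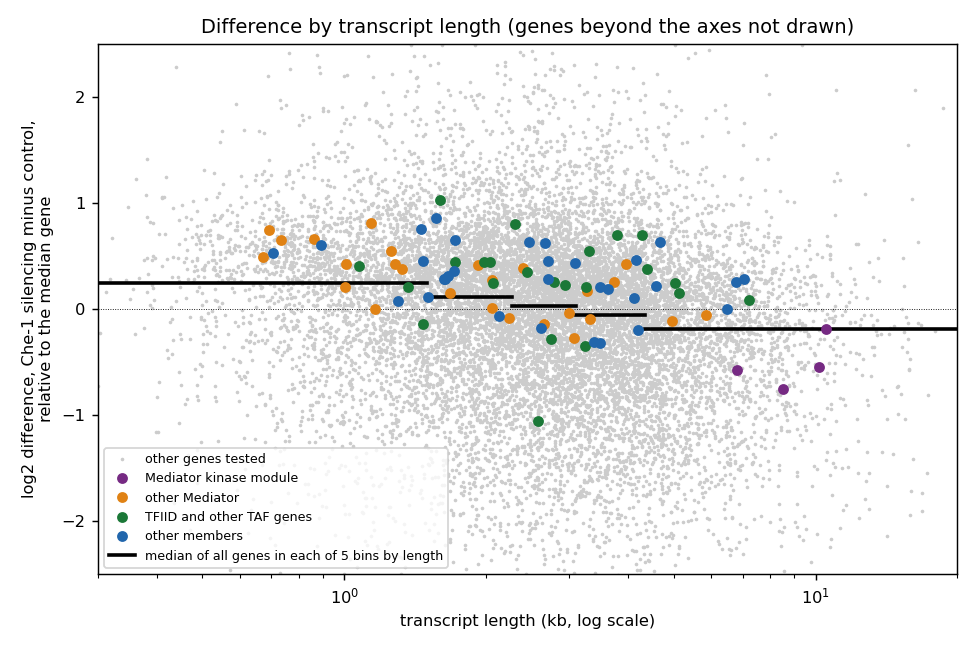
Relative log2 difference, Che-1 silencing minus control (vertical axis), against transcript length in kb (horizontal axis, log scale) for the members (coloured by complex) and other genes tested (grey); black bars are the medians of all genes in 5 bins of equal number by length. Members sit mostly above the bars, and the kinase module Med genes sit at the long end.

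Per kilobase of transcript the most abundant members in the Che-1 silencing libraries were Taf1d with a mean of 3622 normalized counts per kb, against 909 in the control libraries, and Supt16 with 3556, against 726 in the control libraries. Taf9, Gtf2f1 and Supt4a followed with 3409, 2655 and 2579 in the Che-1 silencing libraries and 495, 523 and 586 in the control libraries. The Taf9 values may hold reads of Ak6. The lowest of the tested members was Med12l with 64.5, against 30.8 in the control libraries. Given the spread of the libraries this order is a description.

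Partners of these complexes whose symbols fall outside the rule were read from 8 lists. Per spike-in RNA 44 of the 54 tested rose and 0 fell (66.8% and 0.745% of all genes). On the relative scale limma called 0, with 12 higher and 7 lower at an unadjusted p of at most 0.05 (17.8% and 17.3% of all genes). edgeR called 0 in each direction, and DESeq2 called 9 higher and 5 lower (15.6% and 11.5% of all genes). Without Che-1 silencing replicate 3 limma called 22 higher and 7 lower (27.7% and 25.2% of all genes). Their relative median was 0.20 log2 units with 37 higher in mean. In the Mediator kinase module Ccnc, the cyclin, differed by 0.67 (SE 0.16, limma adjusted p = 0.0740), Cdk19 by -0.33 (SE 0.14) and Cdk8 by 0.16 (SE 0.16). Of the TFIIH kinase trio Mnat1 and Ccnh differed by 0.58 (SE 0.13) and 0.66 (SE 0.20) and the kinase Cdk7 by -0.46 (SE 0.12, limma adjusted p = 0.0814). All 6 genes of the PAF1 complex and all 4 of RNA polymerase I initiation were higher in mean, with medians of 0.23 and 0.50. TFIIIB and SNAPc had 3 of 8 higher, with Brf1 at -0.50 (SE 0.17). Elongation partners had 9 of 12 higher. The elongation factor Ell2 had 7933 ± 4791 normalized counts in the Che-1 silencing libraries and 1154 ± 385 in the control libraries (SD, n = 3 each), a relative difference of 1.08 (SE 0.22, limma adjusted p = 0.0730). Its paralog Ell differed by -0.55 (SE 0.14) and Tcea1, which rescues stalled polymerase, by 0.89 (SE 0.26). SAGA partners had 7 of 13 higher, from -0.62 for Usp22 (SE 0.24) to 0.78 for Tada1 (SE 0.21), and the TBP regulators had 4 of 4 higher with a median of 0.33.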

How the data were processed

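RNA of bone marrow was measured in 6 libraries, 3 labelled Che-1 silencing and 3 labelled control. Per the labels' protocols, total RNA was depleted of ribosomal RNA and made into stranded libraries. The submitters' processing notes name build mm9 and the tools HTSeq, TopHat, Cufflinks and Cuffdiff. No version, and no strand setting of the counting, is given there. The authors deposited for each library the raw count of every one of 92 ERCC spike-ins. Summary rows of HTSeq in that file (0.0434% to 0.221% of its reads) were not summed into spike-in totals. The authors also deposited, per the file headers, group means of gene counts, each count first divided by its library's spike-in size factor (unit: signal), with a fold (the ratio of the means), its log2 value, a p-value and an adjusted p-value.

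The planned tests assumed a value per library. Whole counts per library were therefore solved for from the group means and the size factors (a median ratio from 72 rows with reads in all libraries, 70 of them spike-ins and 2 summary rows). All 3330 Che-1 silencing means and 4739 control means below 50 had exactly 1 solution. In this way 17107 genes (99.6%) were recovered, all 85 members among them. The 66 others, each with a mean of at least 13905, were left out of the fits.

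limma 3.58.1 (R 4.3.3) was fitted on log2(normalized count + 1) (terms: group; eBayes with a trend on the mean) to all 14635 genes with a mean of at least 10, with Benjamini-Hochberg adjustment over all of them at 0.05. Log2 differences are Che-1 silencing minus control and understate the change of low genes. Each SE printed beside a log2 difference is from that fit. On the spike-in scale limma estimated an infinite prior df, so p-values rest on a spread shared across genes, while the prior df was 2.42 on the relative scale, where the median log2 level was made equal in all libraries. The fit on the relative scale and the solving of counts were tested on simulated data. For the fit these data held no shift of whole libraries, and the fit on the spike-in scale was not tested in this way. Every tested member averaged at least 62.3 normalized counts in each group. Counting error was not compared with the spread between libraries. On the relative scale it may not be small for low members such as Med31 (72, 104 and 113 reads in the control libraries, SD 0.05).

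The members and all lists were chosen with earlier results of these data known. The genes named were Aatf, the members with the highest and lowest relative difference and the highest level in each class, the paralog pairs, Tbp, and up to 3 genes per partner list by lowest relative p; further members were named after their values were seen. Med14 and Med26 were counted with the Mediator middle and Med27 to Med30 with the head. Replicate numbers were not used as pairs in the main fits. Deviations of same-numbered libraries from their group means had correlations of 0.17, -0.15 and 0.18. With 3 libraries per group these values cannot settle whether the libraries were paired. Promoters are from RefSeq, and transcript lengths from GENCODE M21 (GRCm38); no coordinates of the authors' build were used. Of the members 28 share exon bases with another annotated gene, 5 of them on the same strand, and such counts are uncertain. On the opposite strand Tbp shares 2277 bases with Pdcd2, Med12l 1948 with Igsf10, Taf10 1533 with Ilk and Taf6 903 with Ap4m1. edgeR 4.0.16 and DESeq2 1.42.0 on the recovered counts, other pseudocounts, minimum means and scalings, summed like libraries and libraries left out were tried as alternatives.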

Additional observations from a re-analysis of the deposited data

How the results depend on the processing

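On the spike-in scale the count of members called higher (80 of 84) was 80 or 81 under other pseudocounts, minimum mean 50, edgeR and DESeq2 (66.7% to 72.6% of all genes). The count was 77 of 85 with no minimum mean (57.8% of all genes). It was 0 for limma without moderation (0.0% of all genes), 27 when control libraries 2 and 3 were summed (23.6% of all genes), and 0 when both like pairs (those 2 and Che-1 silencing libraries 1 and 2) were summed (3.63% of all genes), an alternative chosen after seeing the data. With 1 library left out it ran from 24 to 81 (22.0% to 75.6% of all genes). With the replicate block, which takes same-numbered libraries as belonging together, the count was 60 on the spike-in scale (46.1% of all genes) and 0 on the relative scale. No member was called lower on the spike-in scale under any alternative run. On the relative scale the counts of 0 became 19 higher and 2 lower with DESeq2 (15.6% and 11.5% of all genes) and up to 43 higher and 4 lower with 1 library left out (27.7% and 25.2% of all genes) (lowest 0 and 0), both highest values without Che-1 silencing replicate 3. The members' median relative difference (0.27) stayed between 0.17 and 0.41. Of 289 relative class medians over all alternatives 6 moved by more than the spread between replicates. The Mediator middle median became 0.18 with both pairs of like libraries summed, and the SL1 median 0.10 with no minimum mean. The TFII-I median of -0.31 became -0.21 with control libraries 2 and 3 summed, -0.15 with both pairs summed, and ran from -0.31 to -0.18 with 1 library left out. Of 816 relative values of 48 named genes 15 changed direction, all in genes near 0. With 1 library left out Med22 ran from -0.19 to 0.034, Med1 from -0.13 to 0.056, Taf1 from -0.076 to 0.22 and Supt6 from -0.13 to 0.080. Taf1 was also -0.033 with both pairs summed, Med1 0.015 and Supt20 0.0055 with no minimum mean, and Supt6 0.0083 with pseudocount 5, 0.067 with no minimum mean, 0.0043 with edgeR and 0.0045 with DESeq2. On the spike-in scale 0 of 768 values changed direction and 240 lost their call. The cause of these changes was not tested. The minimum mean of 10 kept 1 member, Gtf2a1l, with at most 3 reads in a library, from being tested in the main fits.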
